A study of Mus musculus with 24 samples.

Results

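The 5 V segments TRBV14, TRBV20, TRBV23, TRBV24 and TRBV30 were followed through the TCRβ repertoires of 24 mouse tumors. Their members were all sequences called to one of these segments whose stop codon column was empty and that had at least 2 counts, grouped into clonotypes by CDR3 amino acid sequence, V segment and J segment. This gave 4110 clonotypes of 61362 in all 24 tumors, or 6.70% of the clonotypes, and 3.01% of the 7463100 counts. TRBV20 contributed 2127 of these clonotypes, TRBV14 contributed 1465, TRBV30 contributed 431, TRBV24 contributed 75 and TRBV23 contributed 12.

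The repertoires came from RNA of whole tumors, which female BALB/c mice, obtained at 7 to 9 weeks of age, bore in both flanks after inoculation with CT26 (CT26.CL25), a mouse colon carcinoma line. There were 4 groups of 3 mice with 2 tumors each. In the time-matched group (mice 6, 12 and 14) both tumors were taken on day 13, without treatment. In the untreated time-separated group (mice 4, 17 and 19) 1 tumor was removed by surgery and the other was taken 11 days later. Mice of the low dose DAC group (3, 11 and 20) and the high dose DAC group (7, 10 and 16) had the same surgery, and from day 3 after it received decitabine (DAC), a DNA methyltransferase inhibitor, at 0.5 or 2 mg/kg for 5 days, with the remaining tumor taken 4 days after the last dose. Tumors carry the numbers 1 and 2 in the labels, which do not say which was taken first, so no change is given a direction in time, and in a treated mouse 1 of the tumors had never met the drug. The retained depth was 375898 to 610800 counts in the time-matched tumors and 63291 to 887567 counts in the 18 tumors of the other groups. In RNA of whole tumors, fewer T cells of a clone and less receptor RNA per cell cannot be told apart.

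The β chain of a T cell receptor is assembled in the thymus from 1 V, 1 D and 1 J segment, and bases are trimmed and added where they meet. The joint lies in CDR3, the loop that touches the presented peptide, so that its sequence marks a clone of T cells. A joint that shifts the reading frame yields no β chain, and a T cell that carries one has made its receptor from its other allele. The 5 segments belong to the TRB locus on chromosome 6, and in the older Vβ naming, taken from RefSeq synonyms of the GRCm38.p6 annotation, TRBV14 is Vβ13, TRBV20 is Vβ15, TRBV23 is Vβ20, TRBV24 is Vβ17 and TRBV30 is Vβ18. In that annotation TRBV23 and TRBV24 are neighbors.

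The expanded clones of these segments, defined as clonotypes of at least 1% of the retained counts of a tumor, numbered 10 and lay in 6 mice. The CDR3 nucleotide sequences of 8 are shown because each one identifies a clone whose values follow. Bases in capitals match neither the start that sequences of the V segment share nor the end that sequences of the J segment share, and so mark the joint.
TRBV14-TRBJ2-5, mouse 3: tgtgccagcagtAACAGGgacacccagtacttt
TRBV14-TRBJ2-7, mouse 11: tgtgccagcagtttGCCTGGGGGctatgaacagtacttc
TRBV14-TRBJ2-1, mouse 11: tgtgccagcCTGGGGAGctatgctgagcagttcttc
TRBV30-TRBJ2-4, mouse 3: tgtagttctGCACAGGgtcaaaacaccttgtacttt
TRBV20-TRBJ1-6, mouse 4: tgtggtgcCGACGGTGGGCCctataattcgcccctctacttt
TRBV14-TRBJ2-7, mouse 17: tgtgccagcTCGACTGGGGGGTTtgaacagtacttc
TRBV20-TRBJ1-6, mouse 3: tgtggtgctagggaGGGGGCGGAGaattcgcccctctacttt
TRBV14-TRBJ2-3, mouse 4: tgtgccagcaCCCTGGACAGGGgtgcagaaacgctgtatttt
The joint of the mouse 3 TRBV14 clone had 6 bases outside the shared ends, the fewest of the 8, and that of the mouse 17 TRBV14 clone had 14, the most. The sequence printed made up between 97.3% and 99.1% of the counts of its clonotype in that mouse.

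The segments did not form 1 class of usage. By mean clonotype share over the 12 mice, TRBV20 was 11th of the 25 TRBV segments seen, with 3.37% ± 1.11 (SD, n = 12 mice), and TRBV14 was 13th with 2.45% ± 0.977, so both stood in the middle of the order and "less used" did not describe them. TRBV30 was 17th with 0.753% ± 0.543, TRBV24 was 21st with 0.116% ± 0.0632, and TRBV23 was last with 0.0193% ± 0.0194. Neighbors in this order were compared by an exact sign-flip permutation test over mice, two-sided, with adjustment over all 24 steps. The order was set by the same values, so the sign of each mean difference was fixed in advance. Of these, 2 passed (8.33%). TRBV20 was not separated beyond the spread between mice from TRBV29 above it (exact test, adjusted p = 0.441) or TRBV2 below it (adjusted p = 0.246). The same exact test did not separate TRBV14 from TRBV2 (adjusted p = 0.735) or TRBV3 (adjusted p = 0.699), nor TRBV30 from TRBV15 (adjusted p = 0.934). TRBV30 exceeded TRBV8, the next below it, in 11 of 12 mice by a mean of 0.512 percentage points (exact test, adjusted p = 0.0176), a call lost when sequences of 1 count were kept (0.416 points, adjusted p = 0.0977). Nor were TRBV24 and TRBV12-1 above it (exact test, adjusted p = 0.105), TRBV24 and TRBV10 below it (adjusted p = 0.598) or TRBV21 and TRBV23 (adjusted p = 0.357) separated.

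The share of counts lay below the share of clonotypes for all 4 segments that could be tested, those with a clonotype in at least 20 tumors. The log2 ratio of count share to clonotype share, taken per mouse as the mean of its tumors, came to -1.31 ± 1.06 (SD, n = 12 mice) for TRBV14, -1.71 ± 1.05 for TRBV20, -2.71 ± 0.76 for TRBV24 and -1.31 ± 0.87 for TRBV30. These 4 passed the exact sign-flip permutation test (two-sided, adjusted over 22 segments), with adjusted p = 0.00165, 0.00165, 0.00119 and 0.0023. The ratio was below 0 in 12 of 12 mice for TRBV24 and in 11 of 12 for each of the other 3. The same call was made for 19 of the 22 TRBV segments tested, or 86.4%, with a median log2 ratio of -1.29 over all 22, so a count share below the clonotype share was the common state of V segments in these tumors. The single segment called higher was TRBV17 (0.85 ± 0.38), named here after its values were seen.

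Tumors in which the count share exceeded the clonotype share were few. TRBV14 had 3 such tumors of 24, which were tumor 1 of mouse 3 (11.9% of counts, 6.43% of clonotypes), tumor 2 of mouse 7 (4.27% and 3.47%) and tumor 2 of mouse 11 (5.14% and 4.15%). TRBV20 had 2, both from mouse 10, with 7.17% of counts and 6.66% of clonotypes in tumor 1 and 9.76% and 6.07% in tumor 2. TRBV30 had 3, tumor 1 of mouse 3 (2.97% and 2.27%), tumor 2 of mouse 3 (2.33% and 2.22%) and tumor 2 of mouse 20 (0.839% and 0.738%). TRBV23 exceeded its clonotype share in 1 tumor, where it had a single clonotype, and TRBV24 in 0 of 20.

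**Figure D1:**
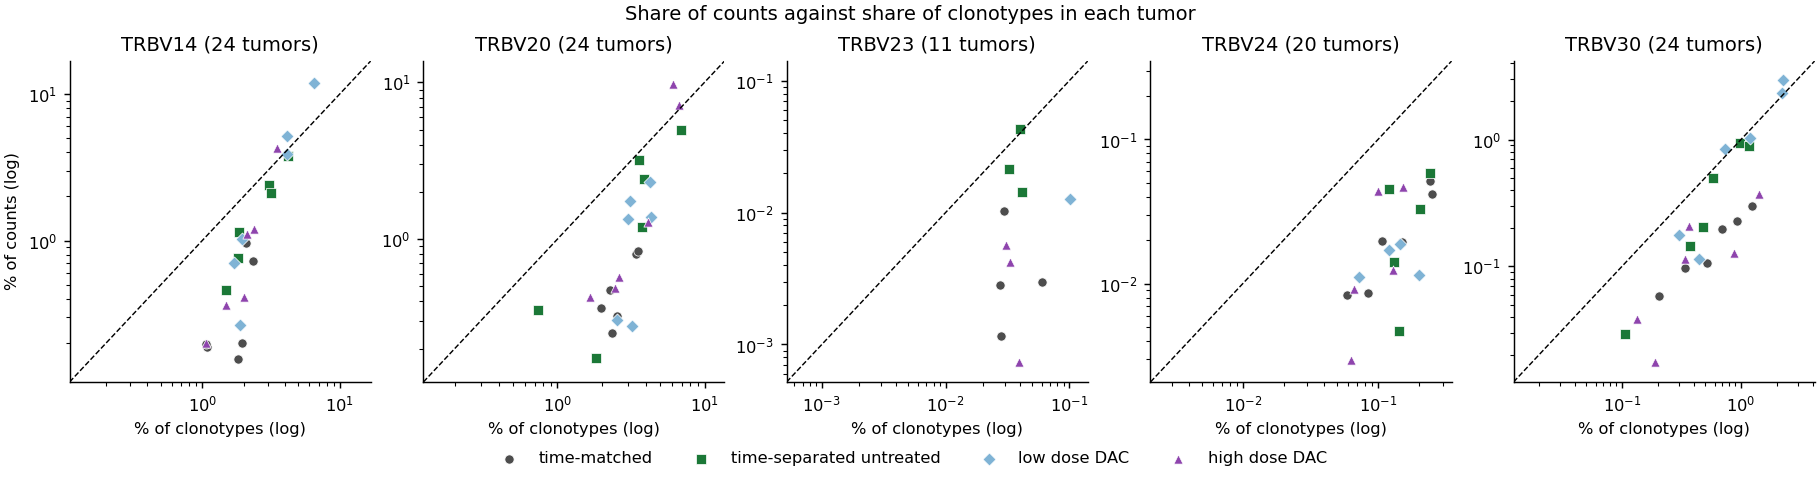
Share of retained counts (y axis, %, log scale) against share of clonotypes (x axis, %, log scale) for each segment, 1 point per tumor that held a clonotype of it, with color and marker by group and the dashed line where both shares are equal. Most points lie under the line, and those above it for TRBV14, TRBV20 and TRBV30 are the 3, 2 and 3 tumors named in the text.

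How much 1 clone made of a segment varied widely between tumors. The largest clonotype held from 9.18% to 93.9% of the TRBV14 counts of a tumor, with a median of 45.1% over 24 tumors. For TRBV20 the range was 5.12% to 91.4% with a median of 20.0%, and for TRBV30 it was 11.0% to 96.7% with a median of 49.2%. The median for TRBV24 was 68.9% over the 20 tumors that held it, where the number of its clonotypes was at most 9 in a tumor. TRBV23 had 1 or 2 clonotypes in each of its 11 tumors. The number of clonotypes per tumor was 17 to 176 for TRBV14, 13 to 200 for TRBV20 and 2 to 62 for TRBV30.

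The largest TRBV14 clone, TRBV14-TRBJ2-5 of mouse 3 (low dose DAC), had the highest share of a tumor among the clones of the 5 segments. It had 18170 of 185931 counts in tumor 1, or 9.77% (95% Clopper-Pearson interval 9.64% to 9.91%), where it was the 3rd largest clonotype of any segment and made up 81.9% of all TRBV14 counts. In tumor 2 it had 116 counts of 63291, or 0.183% (0.151% to 0.220%), a 53.3-fold lower share. Intervals given for clones cover counting error only, since reads of 1 molecule may have been counted more than once. The same nucleotide sequence was also listed in 3 other mice, with 7 counts in all and at most 0.00204% of a tumor. Whether these few counts came from cells of those mice was not tested.

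The largest TRBV30 clone, TRBV30-TRBJ2-4 of mouse 3, was close in both tumors, with 2.60% (2.53% to 2.67%) in tumor 1 and 2.15% (2.04% to 2.27%) in tumor 2. It held 87.4% and 92.6% of the TRBV30 counts there.

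Of the other expanded clones shown, 3 differed by at most 1.58-fold between the tumors of their mouse and 3 by 2.62-fold or more. The TRBV14-TRBJ2-7 clone of mouse 17 had 1.57% and 1.42%, the TRBV20-TRBJ1-6 clone of mouse 4 had 1.47% and 2.12%, and the TRBV20-TRBJ1-6 clone of mouse 3 had 0.907% and 1.44%. The nucleotide sequence of the mouse 4 TRBV20-TRBJ1-6 clone was also listed in 2 other mice, with 26 counts in all and at most 0.0116% of a tumor. Whether these counts came from cells of those mice was not tested. The TRBV14-TRBJ2-1 clone of mouse 11 had 2.73% in tumor 1 and 1.04% in tumor 2, while the TRBV14-TRBJ2-7 clone of the same mouse had 0.289% and 3.03%, the opposite order. The TRBV14-TRBJ2-3 clone of mouse 4 was the most uneven, with 2 counts in tumor 1 (0.00115%, interval 0.000139% to 0.00416%) and 2222 counts in tumor 2 (1.31%, interval 1.26% to 1.37%). In mouse 11, the 2 expanded TRBV14 clones thus changed in opposite directions between the same tumors.

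**Figure D2:**
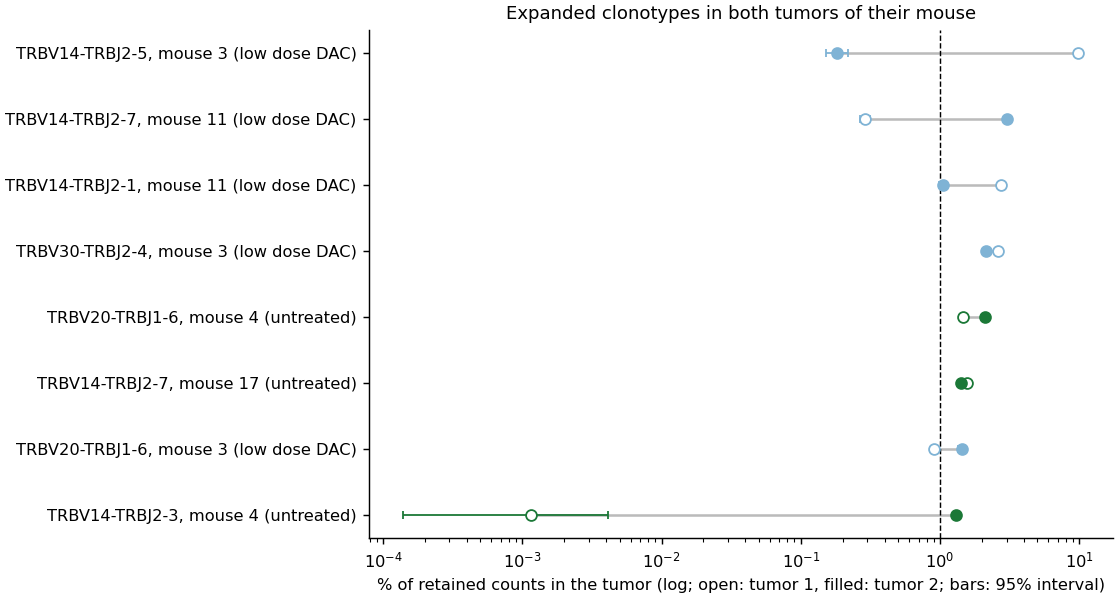
Share of retained counts (x axis, %, log scale) of 8 of the 10 expanded clonotypes in tumor 1 (open points) and tumor 2 (filled points) of their mouse, with 95% Clopper-Pearson intervals as bars and color by group. The dashed line marks the 1% limit, and the distance between points runs from the nearly equal pair of mouse 17 (1.57% and 1.42%) to the mouse 4 TRBV14-TRBJ2-3 clone (0.00115% and 1.31%).

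By segment, 6 of the 10 expanded clones were TRBV14, 3 were TRBV20, 1 was TRBV30, and TRBV23 and TRBV24 had 0. By group, 3 came from untreated time-separated mice, 5 from low dose DAC, 2 from high dose DAC and 0 from time-matched mice. All other V segments together had 200 expanded clones, of which 34 came from time-matched mice. The number by group was not tested. By the larger of its tumor shares, the smallest of the 10 was the TRBV14-TRBJ2-3 clone of mouse 4 (1.31%), while the highest share of a clone that stayed below 1% in both tumors was 0.835% (a TRBV14-TRBJ2-7 clonotype in tumor 2 of mouse 4).

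The count share of TRBV14 was lowest in time-matched mice, but its difference did not pass the test. In the 6 time-matched tumors its share was 0.156% at the lowest, 0.199% at the median and 0.960% at the highest, and in untreated time-separated tumors 0.460%, 1.63% and 3.77%. In low dose DAC tumors the same 3 values were 0.267%, 2.46% and 11.9%, and in high dose DAC tumors 0.200%, 0.760% and 4.27%. The groups overlapped, with mouse 6 the highest of the time-matched mice and mouse 16 the lowest of the time-separated ones (0.390% of counts on average). Over mice, the mean log2 count share was 2.04 higher in the 9 time-separated mice than in the 3 time-matched mice (exact permutation test, two-sided, p = 0.05, adjusted p = 0.486). Of these 9 mice, 6 had received decitabine and all had surgery, and each value averages an early and a late tumor. Time, surgery, drug and depth cannot be told apart in this comparison. Of the 22 segments, 0 passed (0%), and 1 had an unadjusted p under 0.05.

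TRBV20 and TRBV30 overlapped between groups as well. The TRBV20 share of counts, as lowest, median and highest of 6 tumors, was 0.251%, 0.417% and 0.839% in time-matched mice and 0.175%, 1.80% and 4.93% in untreated time-separated mice. It was 0.280%, 1.36% and 2.32% with low dose DAC and 0.428%, 0.925% and 9.76% with high dose DAC, and the tumors of mouse 10 alone gave the values above 4.93%. TRBV30 had 0.0589%, 0.152% and 0.298% in time-matched tumors and 0.0292%, 0.350% and 0.933% in untreated time-separated tumors. It had 0.115%, 0.932% and 2.97% with low dose DAC and 0.0175%, 0.121% and 0.371% with high dose DAC. The log2 difference between time-separated and time-matched mice was 1.36 for TRBV20 (exact permutation test, adjusted p = 0.486) and 0.88 for TRBV30 (adjusted p = 0.72). TRBV24, with 0% to 0.0589% of counts over all 24 tumors, lay the other way (-1.52, exact permutation test, adjusted p = 0.486).

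**Figure D3:**
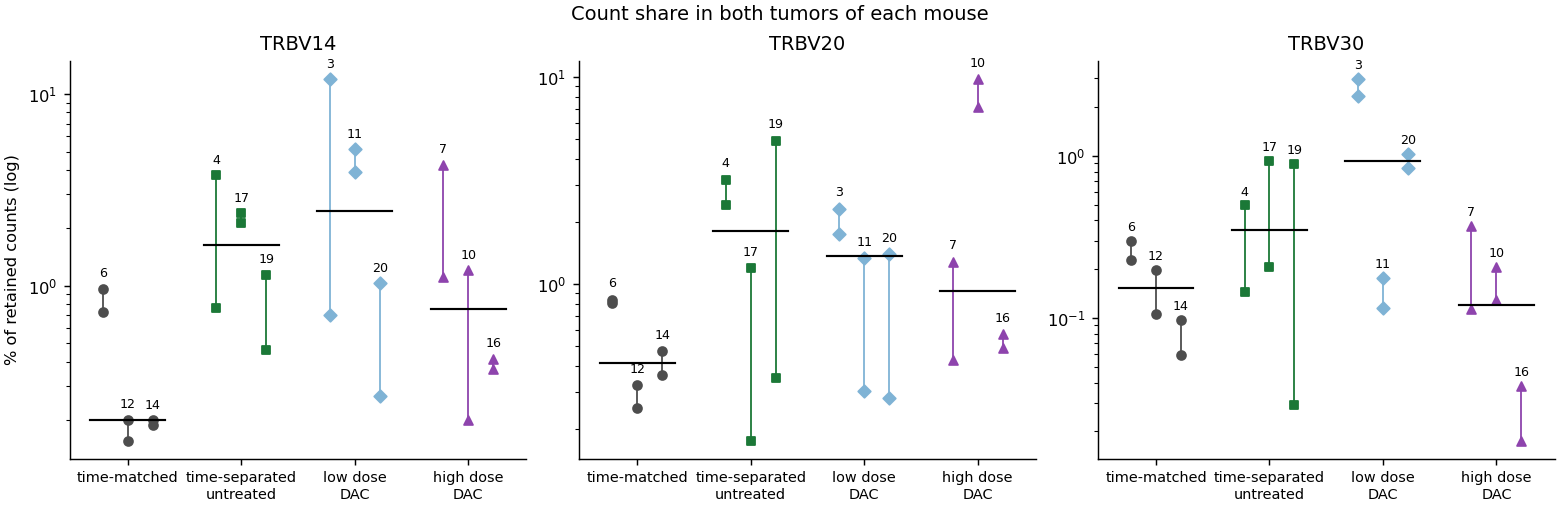
Share of retained counts (y axis, %, log scale) of TRBV14, TRBV20 and TRBV30 in each tumor, with the tumors of a mouse joined by a line under the mouse's number and the group median of 6 tumors as a black bar. Time-matched medians (0.199%, 0.417% and 0.152%) lie below those of the untreated time-separated tumors (1.63%, 1.80% and 0.350%), with overlap of the tumors for each segment.

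The share of clonotypes gave the same outcome between these mice, with the same limits. It was 1.72% ± 0.583 (SD, n = 3 mice) for TRBV14 in time-matched mice and 2.69% ± 0.981 (n = 9) in the other mice (exact permutation test, adjusted p = 0.50). For TRBV20 it was 2.69% ± 0.712 and 3.60% ± 1.16 (exact test, adjusted p = 0.582), and for TRBV30 0.655% ± 0.41 and 0.786% ± 0.599 (adjusted p = 0.82). TRBV24 had 0.149% ± 0.089 and 0.105% ± 0.0546 (exact test, adjusted p = 0.582). Among all 22 segments 0 passed (0%), and 1 had an unadjusted p under 0.05. With 3 mice against 9, the smallest p the test can give is 0.00455, so a lone segment cannot pass the adjustment over 22. The same limit holds for the comparisons of count share and of change between tumors.

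Decitabine was compared with no treatment among time-separated mice, which share their untreated controls with the comparison of time-matched and time-separated mice. TRBV14 held 2.60% ± 0.813 (SD, n = 3) of clonotypes in untreated mice and 2.73% ± 1.13 (n = 6) in treated mice, TRBV20 3.44% ± 0.563 and 3.68% ± 1.41, TRBV24 0.141% ± 0.071 and 0.0876% ± 0.0404, and TRBV30 0.613% ± 0.126 and 0.872% ± 0.735. Every one of these differences had an adjusted p of 0.976 by the exact permutation test. In count share, the log2 difference of treated from untreated mice was -0.24 for TRBV14, -0.01 for TRBV20, -0.95 for TRBV24 and -0.04 for TRBV30, each with an adjusted p of 0.988 by the same test. These values pool the doses, which lay on opposite sides of the untreated mice for TRBV30. Its mean count share was 0.450% ± 0.125 (SD, n = 3 mice per group) untreated, 1.24% ± 1.28 with low dose and 0.146% ± 0.109 with high dose. Over the 22 segments 0 passed in clonotype share (0%) and 0 in count share (0%), with 0 at an unadjusted p under 0.05 in either. The smallest p possible with 3 mice against 6 is 0.0119, and a p above the threshold does not show that the groups were alike.

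Between the tumors of 1 mouse, the mean change in count share was smaller in the time-matched mice for TRBV14, TRBV20, TRBV24 and TRBV30, without passing the test. The absolute log2 change of TRBV14 was 0.28 ± 0.18 (SD, n = 3 mice) there and 1.66 ± 1.3 (n = 9, of which 6 treated) in time-separated mice. That of TRBV20 was 0.27 ± 0.18 and 1.56 ± 1.28. The corresponding values were 0.67 ± 0.26 and 1.52 ± 1.44 for TRBV30 and 0.12 ± 0.16 and 3.89 ± 2.99 for TRBV24. The exact permutation test gave unadjusted p = 0.105, 0.0955, 0.391 and 0.0455 in the order TRBV14, TRBV20, TRBV30 and TRBV24, and adjusted p = 0.192, 0.191, 0.391 and 0.191. Of 22 segments 0 passed (0%) and 3 had an unadjusted p under 0.05, while the change was larger in time-separated mice for all 22. In TRBV24, 4 tumors of the time-separated mice had no counts at all, so that its values there depended on the 0.5 counts added before taking logs. The part that depth, which was more even among the time-matched tumors, had in these values was not tested.

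Smaller shares of the TRBV20, TRBV24 and TRBV30 clonotypes were found in both tumors of a mouse than of the remaining clonotypes. The share was 10.6% ± 7.99 (SD, n = 12 mice) for TRBV20 against 19.4% ± 6.6 for all other clonotypes of the same mice, a difference of -8.78 percentage points, negative in 10 of 12 mice (adjusted p = 0.0137, exact sign-flip permutation test). For TRBV30 it was 9.62% ± 8.38 (difference -9.56, 10 of 12 mice, adjusted p = 0.0199 by the same exact test), and for TRBV24 2.04% ± 4.78 (difference -17.12, 12 of 12 mice, adjusted p = 0.00358). The TRBV24 value rests on few clonotypes, from 2 in mouse 11 to 15 in mouse 12 over both tumors. In mice 3, 10, 11 and 19 a tumor held no TRBV24 clonotype, so a share of 0 and a negative difference were fixed there. TRBV14 had 14.0% ± 9.92 (difference -5.24, 9 of 12 mice), and did not pass (exact test, adjusted p = 0.0803), but passed with libraries thinned to equal depth (-5.17, adjusted p = 0.0292), a minimum of 5 counts (-6.64, adjusted p = 0.00371), merging (-2.60, adjusted p = 0.0483) or without mouse 7 (-6.87, adjusted p = 0.0198) or mouse 11 (-6.24, adjusted p = 0.048). The same call was made for 13 of 22 segments, 59.1%, so it was common. With sequences of 1 count kept, the differences shrank to -4.47 for TRBV20, -4.15 for TRBV30 (exact test, adjusted p = 0.0537) and -7.64 for TRBV24, and with sequences 1 base from a much larger one merged that of TRBV30 was -6.00 (adjusted p = 0.0483). For TRBV14 the lowest value was that of mouse 19, with 0 of 74 clonotypes in both tumors, and for TRBV20 that of mouse 20, with 1 of 167, while the highest TRBV20 share was that of mouse 10, 78 of 276. TRBV30 had 0 in mice 11, 16 and 19.

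A larger share of the TRBV24 sequences than of the rest had an entry in the stop codon column, here called marked. Over all V segments 6061 marked sequences were out of frame, 2929 had a stop codon in CDR3 and 19953 had neither, and what set the mark in the last is not given in the sources used here. Of 581 TRBV24 sequences with at least 2 counts, 78 were retained and the others marked, and 486 had a CDR3 whose length was no multiple of 3. In counts, 23523 of 25178 belonged to such out-of-frame sequences. Per mouse, 80.9% ± 9.88 (SD, n = 12) of TRBV24 sequences were marked, against 27.1% ± 3.51 of all others, a difference of 53.84 percentage points, positive in 12 of 12 mice (adjusted p = 0.00358, exact sign-flip permutation test). The marked share of TRBV24 ran from 63.8% to 95.2% over mice, so its lowest mouse lay above the highest mouse value of all other segments pooled, 35.3%, though single segments reached higher in some mice. A higher share than the rest was called for 3 of 22 segments, 13.6%, and the other 2, named after their values were seen, were TRBV12-2 and TRBV15. With out-of-frame lengths counted alone, a reading added after the data were seen, the TRBV24 difference was 73.12 percentage points (exact test, adjusted p = 0.00269), and a higher share was called for 5 of 22 segments, 22.7%.

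Out-of-frame TRBV24 sequences were found in all 24 tumors, also in the 4 without a retained TRBV24 clonotype. They held 0.0277% at the lowest, 0.0576% at the median and 1.499% at the highest of all counts in time-matched tumors. The same 3 values were 0.0824%, 0.206% and 0.297% in untreated time-separated tumors, 0.00443%, 0.109% and 0.230% with low dose DAC and 0.0182%, 0.227% and 0.435% with high dose DAC. The groups overlapped, and mouse 12 gave the highest value. Retained TRBV24 clonotypes, by contrast, held at most 0.0589% of the counts of a tumor. In the 4 tumors with 0 retained counts, the depth allowed a share of up to 0.000742% to 0.00474%, taking 3 counts as the limit.

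TRBV23, which lies next to TRBV24, had 72 sequences, of which 57 were out of frame and 13 were retained. It was found in too few tumors to be tested. Its out-of-frame sequences occurred in 14 tumors, and the largest, a TRBV23-TRBJ2-2 sequence of mouse 7, had 422 counts in tumor 1 and 516 in tumor 2, or 0.759% of all counts of tumor 2. Retained TRBV23 clonotypes were found in 11 tumors of 7 mice, with at most 63 counts in a tumor. By out-of-frame share of sequences pooled over all tumors, TRBV24 was 1st with 83.6% and TRBV23 2nd with 79.2% of the 25 TRBV segments. The pooled TRBV23 value leans on mouse 7, which had 14 out-of-frame TRBV23 sequences in tumor 1 and 18 in tumor 2, while mice 12 and 14 had 0. Among tumors with a TRBV23 sequence, the median out-of-frame share was 50%. In the 13 tumors without a retained TRBV23 sequence, the depth allowed a share of up to 0.000338% to 0.00467%.

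TRBV14, TRBV20 and TRBV30 did not pass the same test in either direction. Their marked shares over mice were 27.4% ± 18.1 (SD, n = 12), 20.3% ± 11.7 and 22.4% ± 10.1, and the exact sign-flip permutation test gave adjusted p = 0.985, 0.0773 and 0.145. Most of their marks, 429 sequences for TRBV14, 399 for TRBV20 and 118 for TRBV30, were of the kind with neither a shifted frame nor a stop codon in CDR3, so these shares are no measure of unusable joints. In libraries thinned to equal depth TRBV20 (-9.67 points, exact test, adjusted p = 0.00358) and TRBV30 (-9.35 points, adjusted p = 0.0175) passed as lower than the rest. TRBV14 was widely spread, from 4.79% in mouse 20 to 77.0% in mouse 16. In mouse 16 (high dose DAC) a single out-of-frame TRBV14-TRBJ2-1 sequence had 15643 counts in tumor 1 and 3691 in tumor 2, which was 1.62% and 0.850% of all counts of these tumors and 81.5% of the out-of-frame TRBV14 counts of all mice. TRBV30 had the fewest, with 14 out-of-frame sequences of 619 and 335 of 22009 counts.

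**Figure D4:**
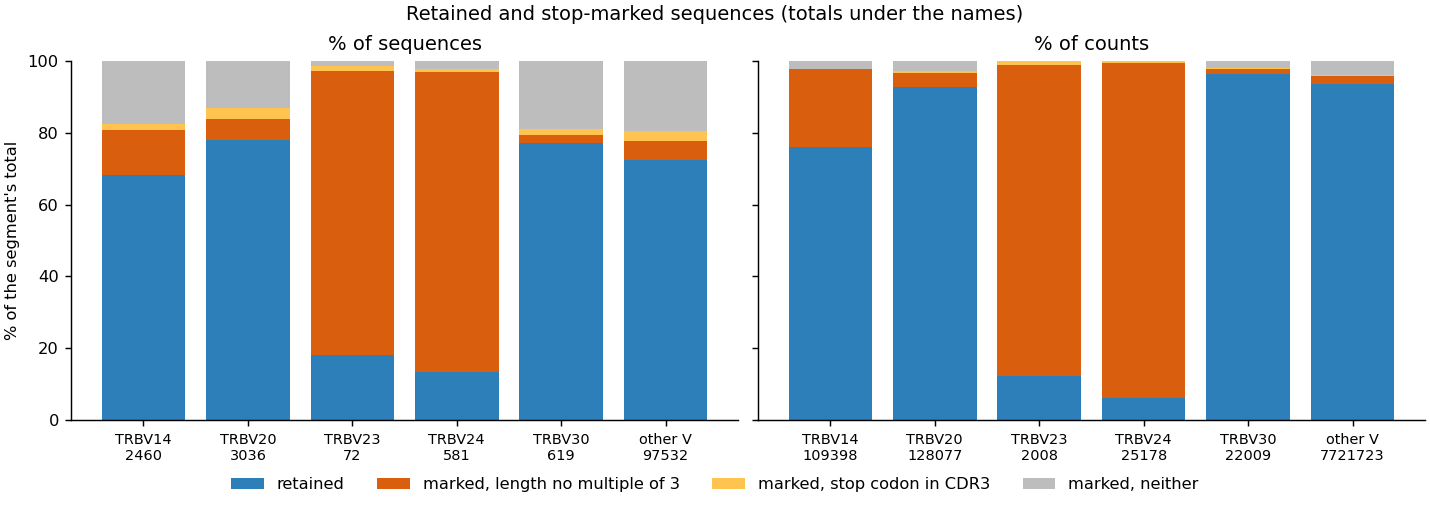
Sequences (left) and counts (right) with at least 2 counts of each segment and of all other V segments, over 24 tumors, as % of the segment's total (y axis), divided into retained, out of frame, stop codon in CDR3 and marked with neither. Totals are printed under the names, and out-of-frame sequences fill most of the TRBV23 and TRBV24 bars (57 of 72 and 486 of 581 sequences).

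Some retained sequences lay 1 base from a much larger out-of-frame sequence. The largest retained TRBV24 clonotype, TRBV24-TRBJ1-3 of mouse 12, had 209 counts in tumor 1 and 152 in tumor 2. The largest out-of-frame TRBV24 sequence was in the same tumors with the same J segment, with 7152 and 6216 counts, of which 7138 and 6202 stood in a single entry of the deposited tables, and was 1 base longer, 49 bases against 48. The TRBV14-TRBJ2-1 sequences of mouse 16 formed a like pair, 15643 counts of 46 bases and 637 counts of 45 bases in tumor 1. These sequences are shown so that the pairs can be compared, with, for reference, the out-of-frame TRBV23 sequence with the most counts and the retained TRBV23 sequence with the highest share of a tumor (0.0429%, 42 counts in its clonotype), and capitals as before. That retained TRBV23 sequence has only its first 2 bases in common with the start that TRBV23 sequences share, so its CDR3 gives little ground for the V call.
TRBV24-TRBJ1-3, mouse 12, out of frame: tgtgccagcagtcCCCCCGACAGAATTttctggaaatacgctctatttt
TRBV24-TRBJ1-3, mouse 12, retained: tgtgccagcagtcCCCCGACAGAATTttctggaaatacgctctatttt
TRBV14-TRBJ2-1, mouse 16, out of frame: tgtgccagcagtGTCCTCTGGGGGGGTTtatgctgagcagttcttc
TRBV14-TRBJ2-1, mouse 16, retained: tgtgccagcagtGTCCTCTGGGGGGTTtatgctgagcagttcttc
TRBV23-TRBJ2-2, mouse 7, out of frame: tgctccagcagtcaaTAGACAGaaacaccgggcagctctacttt
TRBV23-TRBJ2-5, mouse 19, retained: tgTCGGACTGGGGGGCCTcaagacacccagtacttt
In all, 8 of 78 retained TRBV24 sequences, with 388 of 1517 counts (25.6%), were 1 inserted or deleted base away from an out-of-frame sequence of the same tumor and J segment with at least 20 times their counts. The share of such counts was 0.954% for TRBV14 (8 of 1681 sequences) and 0.0177% for TRBV20 (5 of 2369), and TRBV23 and TRBV30 had 0 of 13 and 0 of 478. The 3 TRBV24 clonotypes that were found in both tumors of a mouse were all of this kind. In mouse 16, these sequences made up 20.1% of the retained TRBV14 counts of tumor 1 and 8.23% of those of tumor 2. Whether they arose from the larger sequences was not tested.

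CDR3s of 3 of the segments were shorter than those of the rest. TRBV30 clonotypes averaged 12.6 residues ± 0.372 (SD, n = 12 mice) against 13.7 ± 0.281 for all others in the same mice, a difference of -1.16 residues negative in each of the 12 mice (adjusted p = 0.00358, exact sign-flip permutation test). TRBV20 averaged 13.2 ± 0.301 with a difference of -0.551 (12 of 12 mice, adjusted p = 0.00358 by the same exact test), and TRBV14 13.4 ± 0.438 with a difference of -0.343 (10 of 12 mice, adjusted p = 0.0204). A shorter CDR3 was called for 5 of 22 segments, 22.7%. The TRBV14 call was lost with nucleotide clonotypes (-0.292, exact test, adjusted p = 0.068) and with sequences 1 base from a larger one merged (-0.232, adjusted p = 0.105). TRBV24 averaged 14.0 ± 0.921 (difference 0.284, exact test, adjusted p = 0.421).

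Pooled over mice, the J segment joined most often was TRBJ2-7 for TRBV14 (392 of its clonotypes, 26.8%), TRBV20 (553) and TRBV23 (3 of 12). It was TRBJ2-4 for TRBV24 (12 clonotypes, 16.0%) and TRBV30 (99, 23.0%). By the mean over mice TRBJ2-7 led instead for both, with 21.1% of the TRBV30 clonotypes against 14.8% for TRBJ2-4, and 17.9% of the TRBV24 clonotypes against 11.3%. For all 5 segments together, TRBJ2-7 was joined on average to 25.9% ± 14.4 (SD, n = 12) of the clonotypes of the 5 segments and to 19.7% ± 3.89 of all others, a difference of 6.17 percentage points, positive in 7 of 12 mice (adjusted p = 0.521, exact sign-flip permutation test). The spread was wide for the 5 segments, from 10.2% in mouse 3 to 57.5% in mouse 10. None of the 12 J segments passed (0%), and 1 had an unadjusted p under 0.05. That was TRBJ2-1, named after its values were seen, with 10.7% ± 4.23 against 15.9% ± 5.74 (difference -5.16, lower in 10 of 12 mice, unadjusted p = 0.00586, adjusted p = 0.0703 by the same exact test). It passed in thinned libraries (-4.63, exact test, adjusted p = 0.0469), at a minimum of 5 counts (-3.60, adjusted p = 0.041) and without mouse 11 (-5.83, adjusted p = 0.0352) or mouse 14 (-5.77, adjusted p = 0.0469).

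J partners, pooled over mice, differed in level between the 5 segments, which was not tested. TRBJ1-6 had 190 of the TRBV20 clonotypes (8.93%), 6 of the TRBV14 clonotypes (0.41%) and 0 of the 431 TRBV30 clonotypes, against 3.60% of the clonotypes of other V segments. Over mice the TRBV20 value was uneven, with a mean of 10.3% ± 15.3 (SD, n = 12). For the 5 segments together, TRBJ1-6 had 19.1% of clonotypes in mouse 3 and 19.4% in mouse 4, both with an expanded TRBV20-TRBJ1-6 clone. Every other mouse had at most 3.67% (mouse 19). TRBJ2-5 had 21.3% of the pooled TRBV14 clonotypes, second after TRBJ2-7, with a mean over mice of 17.7% ± 14.3. The TRBJ2 cluster as a whole had 77.5% of the TRBV14, 77.7% of the TRBV30 and 65.2% of the TRBV20 clonotypes, against 71.6% for other V segments. Weighted by counts, the TRBJ2-4 share of TRBV30 was 41.1%, where 1 clone of mouse 3 dominated.

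**Figure D5:**
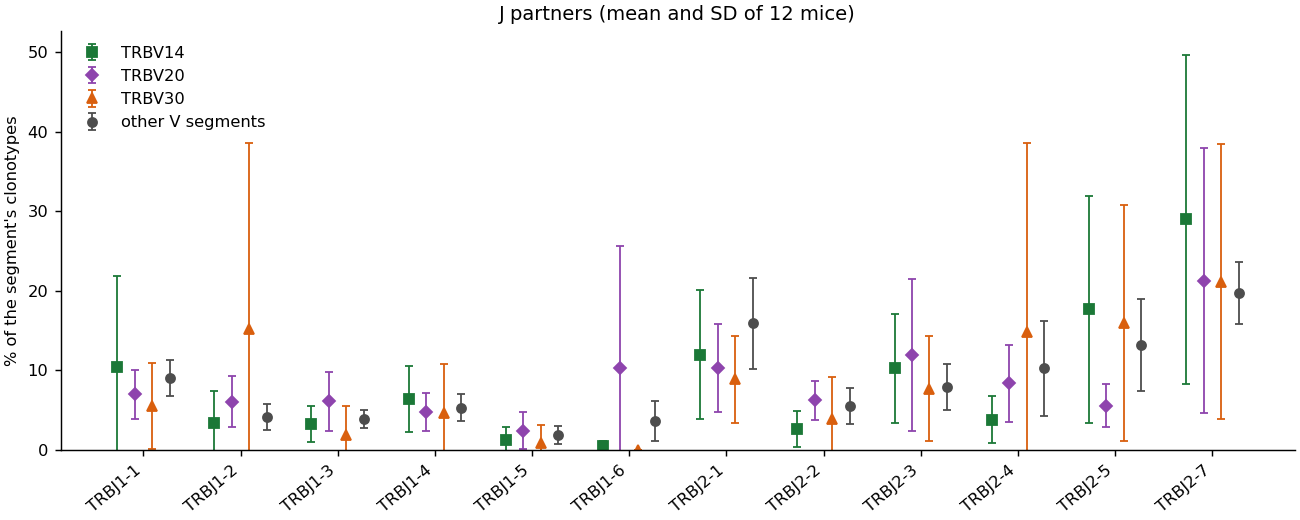
Share of clonotypes joined to each J segment (y axis, %) for TRBV14, TRBV20, TRBV30 and all other V segments, as mean (points) and SD (bars, cut at 0) of 12 mice. TRBJ2-7 is the highest point of TRBV14, TRBV20, TRBV30 and the other V segments. For TRBV30 its mean over mice is 21.1%, above TRBJ2-4 with 14.8%, which led when all TRBV30 clonotypes were pooled.

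Few clonotypes of these segments recurred between mice. Of 3543 different clonotypes, 3456 were found in 1 mouse, 70 in 2, 11 in 3, 3 in 4, 1 in 5 and 2 in 6. Those in 2 or more mice made up 2.46%, against 4.78% of the 44162 clonotypes of other V segments, a difference that was not tested and that rests also on how many clonotypes a segment has in each mouse. The share was 3.46% for TRBV20, 1.43% for TRBV14 and 1.59% for TRBV30. All 72 TRBV24 and all 11 TRBV23 clonotypes were found in 1 mouse only.

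No clonotype of the 5 segments was found in more than 6 mice. Of the 2 TRBV14 clonotypes found in 6, the one with the higher summed share was a TRBV14-TRBJ2-3 clonotype of 7 tumors, with 0.00372% to 0.178% of counts. For TRBV20 the clonotype found in most mice was a TRBV20-TRBJ1-6 clonotype, present in both tumors of 5 mice (10 tumors, 0.00905% to 0.150%), and for TRBV30 a TRBV30-TRBJ2-7 clonotype of 3 mice (4 tumors, 0.000341% to 0.679%). The leading nucleotide sequence of the TRBV20-TRBJ1-6 clonotype is shown for each mouse, since 1 clonotype was written in different bases.
mouse 6: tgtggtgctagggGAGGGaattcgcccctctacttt
mouse 7: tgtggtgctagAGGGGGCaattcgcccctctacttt
mouse 10: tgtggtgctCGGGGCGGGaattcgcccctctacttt
mouse 14: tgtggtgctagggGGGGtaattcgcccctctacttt
mouse 19: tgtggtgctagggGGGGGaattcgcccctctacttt
Each of the 5 mice had its own leading sequence, and 10 sequences in all coded for this clonotype. Those of the TRBV14-TRBJ2-3 clonotype are shown for the same reason, and here mice 6, 11 and 19 shared 1 sequence.
mice 6, 11 and 19: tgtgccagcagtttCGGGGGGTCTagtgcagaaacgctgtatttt
mouse 10: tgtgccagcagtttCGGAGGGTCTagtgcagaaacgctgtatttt
mouse 4: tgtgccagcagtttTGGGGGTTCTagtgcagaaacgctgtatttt
mouse 20: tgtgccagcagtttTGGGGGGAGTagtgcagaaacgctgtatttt
The TRBV30-TRBJ2-7 clonotype, in contrast, had the same leading sequence in mice 6, 17 and 19 (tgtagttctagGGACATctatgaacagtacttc), with 1405 and 154 counts in the tumors of mouse 17, 22 counts in tumor 1 of mouse 19 and 2 counts in tumor 1 of mouse 6. Whether the few counts in mice 19 and 6 came from cells of those mice was not tested.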

How the data were processed

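TCRβ libraries with unique molecular identifiers were made from total RNA of 24 whole tumors. Per the labels and the study's methods, the authors called clonotypes with Cogent NGS Immune Profiler 2.0 and deposited 1 table per tumor with counts per receptor sequence, not normalized. The methods name an analysis based on these identifiers but call the retained values reads, so whether 1 count is 1 molecule is not settled here, and the genome build is not given in the sources used here. The TCRα tables were not used.

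Sequences with an entry in the stop codon column or fewer than 2 counts were left out. Retained libraries held 63291 to 887567 counts. Values were averaged over the tumors of a mouse, and mice were compared by exact sign-flip or exact two-group permutation tests, two-sided, with Benjamini-Hochberg adjustment over the 22 TRBV segments that had a clonotype in at least 20 of 24 tumors, or over 12 J segments. Log2 count shares had 0.5 counts added. The p-values measure the spread between mice. Shares of clones have 95% Clopper-Pearson intervals.

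The rule named the 5 segments, the largest clonotype of each, each clonotype of at least 1% of a tumor, the clonotype of each segment found in most mice, the most used J segments, and neighbors in the order of shares. Segments and lists were chosen with earlier results of these data known. Alternatives changed depth (20 draws, seed 20), minimum count, clonotype definition, the largest clonotype, the counts added, the mice and, added after seeing the data, sequences 1 base from one with at least 20 times their counts and the reading of the mark. Of the expanded clones, 2 are not reported here. Scripts were tested on simulated data. Python 3.11.15, numpy 2.4.6, scipy 1.17.1 and pandas 2.3.3 were used.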

Additional observations from a re-analysis of the deposited data

Results flagged for a closer look

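Within each group of 6 tumors, the count share and the clonotype share of each segment were searched for a single tumor far from the other 5, which gave 4 of 40 searches, where chance alone gives about 2 (about 1 in 20). The tumors of a mouse are not independent, so these are values to look at and no test. Tumor 2 of mouse 7 had 4.27% of its counts in TRBV14, against 1.2005% in the next of the high dose DAC tumors. Tumor 2 of mouse 14 had 0.0103% of its counts in TRBV23, against 0.00296% in the next time-matched tumor, from 1 clonotype of 63 counts. Tumor 2 of mouse 3 was the only low dose DAC tumor with a TRBV23 clonotype, which gave 0.0126% of counts and 0.101% of clonotypes, from 8 counts.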

How the results depend on the processing

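In the comparisons between groups of mice, 0 segments passed under the alternatives run, which says nothing of stability. With 3 mice against 3 the p cannot fall below 0.1. With 3 against 9 (smallest p 0.00455) or 3 against 6 (smallest p 0.0119), a lone segment cannot pass the adjustment over 22. The signs below belong to differences that did not pass. The lower count share of TRBV14, TRBV20, TRBV24 and TRBV30, the marked excess of TRBV24 and the shorter CDR3 of TRBV20 and TRBV30 passed under each alternative run, except that TRBV24 had too few tumors at a minimum of 5 counts to be run. The cause of the changes below was not tested. The J segments that passed went from 0 to 1 in thinned libraries and at a minimum of 5 counts, and numbered 0 to 1 with a mouse left out. Segments with a marked share different from the rest in either direction numbered 7, but 11 in thinned libraries, 12 at a minimum of 1 and 11 at a minimum of 5 counts. Steps of the order that passed numbered 2, but 1 at a minimum of 5 counts and 5 with sequences 1 base from a larger one merged. For clonotype share between time-separated and time-matched mice, the TRBV30 difference was -0.0222 points at a minimum of 5 counts, -0.0084 with merging, -0.0429 against 3 untreated mice and -0.0608 to 0.347 with a mouse left out, where that of TRBV24 was -0.0822 to 0.00499. For clonotype share with DAC, high dose alone gave -0.502 for TRBV14 and -0.0609 for TRBV30, low dose alone gave -0.0194 for TRBV20, and a minimum of 1 count gave -0.0462 for TRBV20 and 0.00225 for TRBV24. With a mouse left out it was -0.333 to 0.393 for TRBV14, -0.30 to 0.463 for TRBV20 and -0.0137 to 0.402 for TRBV30. For log2 count share with DAC, low dose alone gave 0.43 for TRBV14 and 1.396 for TRBV30, high dose alone gave 0.32 for TRBV20, and leaving out the largest clonotype gave 0.0861 for TRBV20 and 0.0565 for TRBV30. With a mouse left out it was -0.72 to 0.10 for TRBV14, -0.70 to 0.60 for TRBV20 and -0.71 to 0.62 for TRBV30. The TRBV14 difference in marked share was -1.06 points in thinned libraries, -1.88 at a minimum of 5 counts, -0.0929 without the largest clonotype and -3.85 (without mouse 16) to 2.04 with a mouse left out, and that of TRBV20 was 0.287 for out-of-frame lengths alone. Expanded clones numbered 15 at a limit of 0.5% and 7 at 2%. Depth limits what can be said of TRBV23 and TRBV24, which had few or no counts in most tumors. Tests against the rest of the repertoire were paired within mice. Between groups of mice, no paired analysis was possible because the groups hold different mice and share no replicate numbers.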
